A study of Mus musculus with 32 samples.

Results

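The melanocyte lineage transcription factors examined here are Mitf, Sox10, Pax3, Tfap2a, Sox5, Sox6, Sox9, Tfe3, Tfeb and Tbx2. They were chosen by symbol, through the Ensembl gene identifiers of the deposited tables, and all 10 were found among 50600 genes. All 10 also passed the filter on low counts, which kept 17717 genes. RNA was sequenced from 32 primary melanomas of mice, 8 in each of 4 groups, to compare tumours with and without E-cadherin in both sexes. Every mouse carried Tyr::NrasQ61K, an NRAS oncogene driven in pigment cells by the tyrosinase promoter, 1 intact copy of the tumour suppressor gene Cdkn2a, and Cdh1F/F, floxed alleles of the E-cadherin gene. Ecad tumours came from males and females without Cre. ΔEcad tumours came from males and females that, by the methods of the study, also carried a Cre driven by the tyrosinase promoter, a design that deletes Cdh1 in pigment cells and not in the skin or stroma that a tumour sample also holds. Ages are not given in the sources used here, and the label of the ΔEcad groups writes Tyr::NRAS/° where the methods write Tyr::CreA/°. Each library is 1 tumour, and it is not stated whether tumours shared an animal, so p-values measure the spread between these tumours.

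Melanocytes arise from the neural crest. MITF, a basic helix-loop-helix leucine zipper factor, controls pigment enzymes, survival and the cell cycle, and its melanocyte-type promoter is activated by SOX10, PAX3 and cAMP-responsive factors. SOX10 and TFAP2A act at many of the same pigment genes, SOX5 and SOX6 modulate SOX10, SOX9 is a relative of SOX10 that is also used by hair follicle and cartilage cells, and TBX2 is a T-box repressor linked to escape from senescence. TFE3 and TFEB are relatives of MITF in the MiT family and control lysosomal and nutrient-sensing genes.

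The sequences below show a cAMP response element in a Mitf promoter and the core of a site bound by MITF in 3 pigment enzyme genes. Sites of SOX10 and PAX3 were not searched for. The RefSeq promoter table (GRCm38.p6, 300 bases around each start site) held 6 of the 10 factors and 10 of 14 pigment cell targets of MITF. Mitf had 3 entries. Of these, the one at chr6:97991533-97991782 (the 250 bases before the start site, + strand) held TGACGTCA, the cAMP response element, in capitals, which was found on either strand of 1.79% of 32851 promoters.
Mitf: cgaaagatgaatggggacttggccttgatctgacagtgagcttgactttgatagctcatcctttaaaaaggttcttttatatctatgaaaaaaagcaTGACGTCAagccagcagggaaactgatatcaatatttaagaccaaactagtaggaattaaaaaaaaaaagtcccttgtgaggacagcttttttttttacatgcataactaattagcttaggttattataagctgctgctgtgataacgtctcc
The stretches of Tyr, Tyrp1 and Dct, pigment enzyme genes, are capitalised at TCATGTG, the core of the M-box bound by MITF. They lie at chr7:87493513-87493560 (- strand), chr4:80834140-80834198 (+ strand) and chr14:118052365-118052423 (- strand).
Tyr: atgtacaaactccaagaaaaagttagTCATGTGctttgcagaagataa
Tyrp1: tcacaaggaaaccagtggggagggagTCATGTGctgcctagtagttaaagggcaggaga
Dct: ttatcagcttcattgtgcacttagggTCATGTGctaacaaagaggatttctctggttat
TCATGTG or its reverse complement was present in any entry of 6 of the 10 target genes with an entry, and in 3.77% of all promoter entries. Some genes have several entries, so a share of genes and a share of entries are not like for like. A match is a description of these letters only.

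Some libraries stand apart and bear on the values below. Total counts per tumour ranged from 24036333 to 63923086, so the least expressed factor, Sox9, had at least 16 counts in each tumour. ΔEcad male 7 was very low in pigment cell markers. Its summed melanocytic marker level was 18.9 TPM (a level corrected for gene length and sequencing depth), against 5517 to 74512 TPM in the other tumours, and no marker of the list was at 0 counts. ΔEcad female 3 was very low in vessel and macrophage markers. Its 5 endothelial markers summed to 0.19 TPM, against 37.35 to 305.5 TPM in the other tumours. Its 6 macrophage markers summed to 24.2 TPM, with 2 at 0 counts, against at least 237 TPM elsewhere. That tumour had the highest Sox9 of the ΔEcad females (33.25 TPM) and the lowest Tfeb and Tbx2 outside ΔEcad male 7. In the library labelled ΔEcad male 2, Xist was at 6.41 TPM, with 0 counts over 4 Y-linked genes, against its label, and ΔEcad female 1 had 92 counts over those Y-linked genes. Among males, the mean Cdh1 level was 146 ± 87.5 TPM with Ecad and 13.05 ± 21.7 TPM with ΔEcad (SD, n = 8 each). Among females it was 50.5 ± 52.9 TPM with Ecad and 55.2 ± 54.1 TPM with ΔEcad (SD, n = 8 each). The Cdh1 level did not separate the female genotypes (edgeR adjusted p = 0.999, against 0.365 in males), which are taken from the labels. Skin content also differed: the 7 keratinocyte markers summed to a median of 1.39 TPM in Ecad females (0.19 to 1704), 6083 TPM in ΔEcad females (1.73 to 31763), 3670 TPM in Ecad males (1.3 to 21633) and 434 TPM in ΔEcad males (1.61 to 14082). In bulk tissue, fewer cells of a type and less RNA per cell cannot be told apart.

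Sox10 was the most abundant of the factors and, outside ΔEcad male 7, the steadiest after Tfe3. Sox10 (ENSMUSG00000033006, chromosome 15, 79154908 to 79165240, GRCm38), the neural crest factor required for the melanocyte lineage, had a median of 912.6 TPM. Sox10 lay between 346 TPM in ΔEcad female 2 and 2229 TPM in Ecad female 7, a 6.45-fold range, in the 31 other tumours, and at 0.49 TPM (17 counts) in ΔEcad male 7. By group, the lowest, median and highest Sox10 levels were 537, 1160 and 1532 TPM in Ecad males, 552, 912.6 and 2229 TPM for Ecad females, 0.49, 767 and 1134 TPM in ΔEcad males, and 346, 866.5 and 1722 TPM in ΔEcad females. All 4 groups overlapped.

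Pax3 (ENSMUSG00000004872, chromosome 1, 78101267 to 78197134), a paired-box factor that acts with SOX10 on Mitf, had group medians of 44.6 TPM in Ecad males (30.0 to 104), 94.0 TPM in Ecad females (49.0 to 137), 46.0 TPM in ΔEcad males (0.01 to 101) and 59.3 TPM in ΔEcad females (12.1 to 107). The lowest tumour, ΔEcad male 7, had 1 count. The next, ΔEcad female 2, stood below the remaining ΔEcad females for Pax3 and was also the lowest of the 31 other tumours for Mitf, Sox10 and Sox5.

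Mitf (ENSMUSG00000035158, chromosome 6, 97807052 to 98021349) varied more than Sox10 when ΔEcad male 7 was set aside. Its levels ranged 27.8-fold among the 31 tumours without ΔEcad male 7, from 21.3 TPM in ΔEcad female 2 to 590 TPM in Ecad female 2. The lowest, median and highest Mitf levels were 35.9, 60.9 and 159 TPM in Ecad males, 30.4, 115 and 590 TPM for Ecad females, 12.4, 67.4 and 233 TPM in ΔEcad males, and 21.3, 65.5 and 179 TPM in ΔEcad females. The 2 highest tumours were both Ecad females (392 and 590 TPM), although that group also held a tumour at 30.4 TPM. ΔEcad male 7 kept 988 counts of Mitf, its lowest level in the series, while Sox10 and Pax3 were close to 0 there. The gene overlaps an antisense gene, and the counting is not stated to use strand, so its level is uncertain to that extent. The same holds for Tfap2a and Sox6, which overlap antisense genes, and Sox5, which overlaps genes on both strands.

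Of the other partners of SOX10 and MITF, Tfap2a (ENSMUSG00000021359, chromosome 13, 40715302 to 40738376) had group medians of 74.2 TPM in Ecad males (43.8 to 105), 32.1 TPM in Ecad females (10.6 to 67.1), 29.1 TPM in ΔEcad males (8.23 to 70.8) and 60.9 TPM in ΔEcad females (38.3 to 93.4). Ecad males and ΔEcad females were thus on the higher side and Ecad females and ΔEcad males on the lower, with overlap. Tbx2 (ENSMUSG00000000093, chromosome 11, 85832551 to 85841948) was second to Sox10, with a median of 320 TPM over all tumours and group medians from 227 TPM in ΔEcad females to 622 TPM in Ecad females. Tbx2 ranged from 71.7 to 1203 TPM outside ΔEcad male 7, which had 9.2 TPM.

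The SOX factors other than Sox10 were all low. Sox5 (ENSMUSG00000041540, chromosome 6, 143828425 to 144781977) had group medians of 4.34 TPM in Ecad males, 10.3 TPM in Ecad females, 5.22 TPM in ΔEcad males and 6.46 TPM in ΔEcad females, within a range of 1.60 to 20.8 TPM. Sox6 (ENSMUSG00000051910, chromosome 7, 115470872 to 116038796) had group medians of 7.74, 13.02, 5.03 and 5.95 TPM in the same order, with 49.4 TPM in Ecad female 2, which also had the highest Mitf, and 0.09 TPM in ΔEcad male 7. Sox9 (ENSMUSG00000000567, chromosome 11, 112782224 to 112787760) had the widest range once ΔEcad male 7 was set aside, 119-fold, although with that tumour Pax3, Sox10 and Sox6 ranged wider. Its lowest, median and highest levels were 2.79, 6.41 and 31.04 TPM in Ecad males, 0.28, 3.31 and 9.78 TPM for Ecad females, 1.49, 3.44 and 37.1 TPM in ΔEcad males, and 0.44, 13.3 and 33.3 TPM in ΔEcad females. Its highest value was in ΔEcad male 7, and without that tumour the mean of the ΔEcad males fell from 8.43 to 4.34 TPM. Cartilage markers, which SOX9 activates in chondrocytes, summed to 0.57 to 144 TPM over all tumours.

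**Figure D1:**
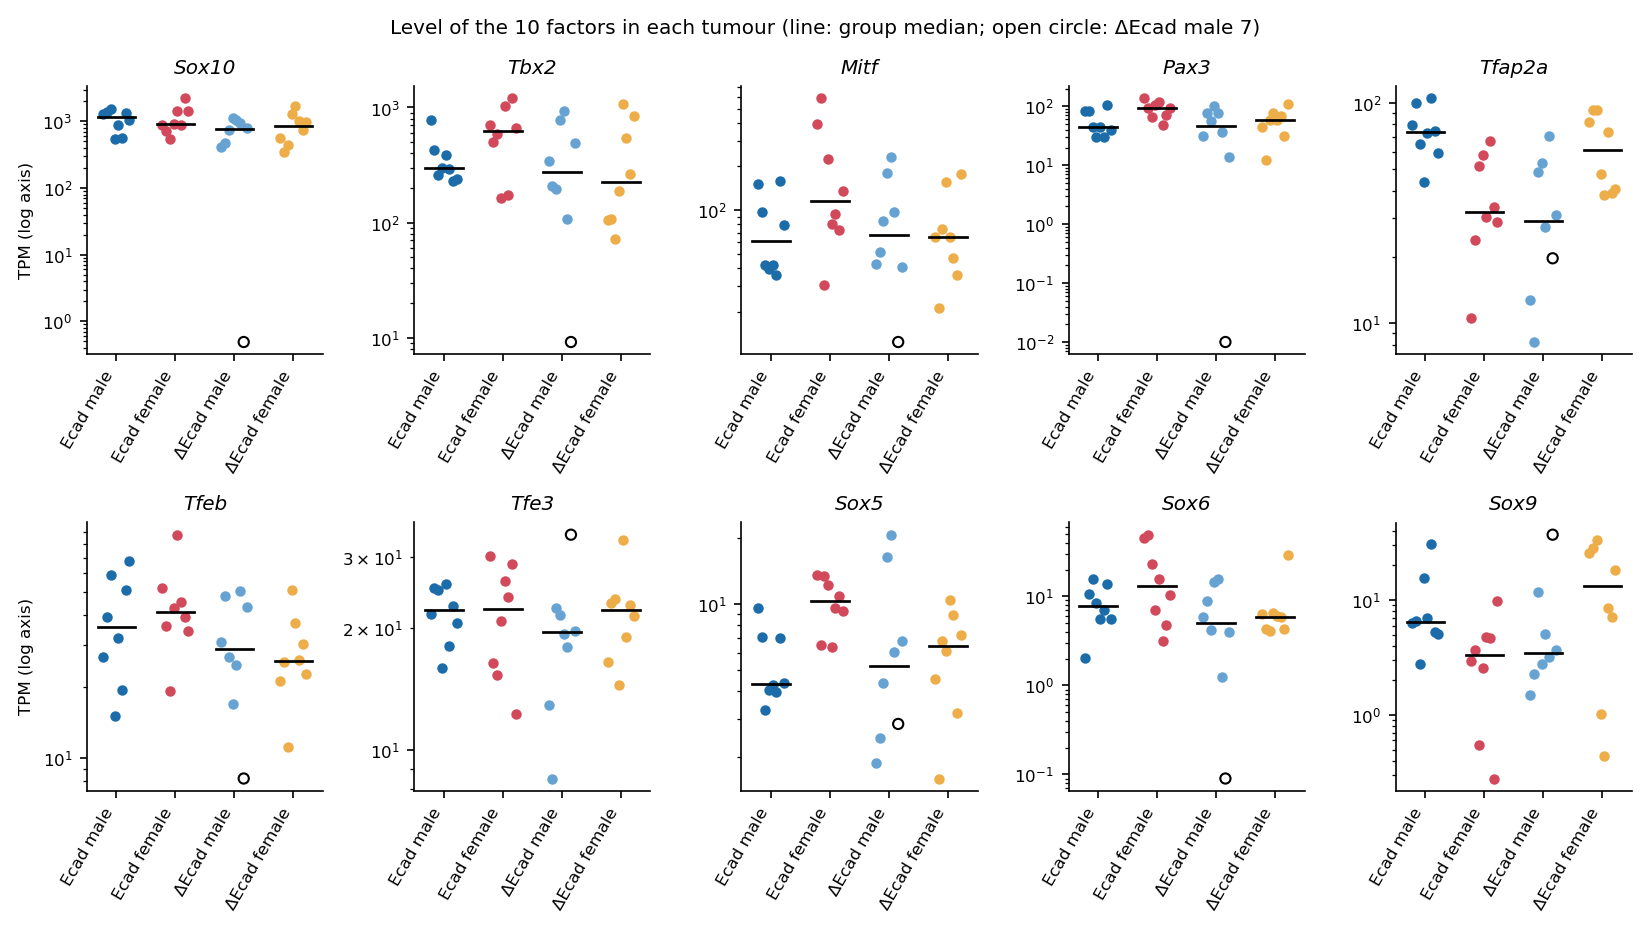
Level of each of the 10 factors in each tumour, in TPM on a log axis, by group, with a line at the group median and ΔEcad male 7 as an open circle. Panels are in the order of the median over all tumours, from Sox10 at 912.6 TPM to Sox9 at 5.08 TPM, and ΔEcad male 7 lies far below its group for Sox10, Pax3, Sox6 and Tbx2 and at the top for Sox9 and Tfe3.

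The order of median levels was Sox10, Tbx2, Mitf, Pax3, Tfap2a, Tfeb, Tfe3, Sox5, Sox6 and Sox9. Neighbours in that order were compared within each tumour as differences of log2(TPM + 0.1), by a two-sided permutation of signs adjusted over the 9 pairs, and 5 pairs differed. Sox10 exceeded Tbx2 by 1.17 ± 1.31 on the log2 scale (SD, n = 32 tumours, higher in 30, permutation adjusted p = 9e-05), and Tbx2 exceeded Mitf by 1.98 ± 1.41 (higher in 28, adjusted p = 4.5e-05). Mitf was above Pax3 in 26 tumours, Tfeb above Tfe3 in 28 and Tfe3 above Sox5 in 31. The levels of Pax3 and Tfap2a (adjusted p = 0.833), Tfap2a and Tfeb (0.0569), Sox5 and Sox6 (0.573) and Sox6 and Sox9 (0.436) did not differ beyond their spread.

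The MiT family was dominated by Mitf in most tumours, but not by a wide margin. Tfeb (ENSMUSG00000023990, chromosome 17, 47737030 to 47792419) had group medians of 35.7 TPM in Ecad males, 41.3 TPM in Ecad females, 28.8 TPM in ΔEcad males and 25.7 TPM in ΔEcad females, from 8.23 TPM in ΔEcad male 7 to 87.4 TPM in Ecad female 5. Tfe3 (ENSMUSG00000000134, chromosome X, 7762560 to 7775202) was the steadiest factor, with group medians of 22.2, 22.4, 19.6 and 22.2 TPM in the same order and a 4.00-fold range over all tumours. Mitf made up a median of 55.8% of the summed TPM of Mitf, Tfe3, Tfeb and Tfec and over 50% in 19 of 32 tumours. For males the share of Mitf was 53.2 ± 14.0% with Ecad and 55.2 ± 20.9% with ΔEcad, and for females 65.4 ± 18.5% and 55.9 ± 17.1% (SD, n = 8 each), differences that lay within the spread of each group. It reached 91.7% in Ecad female 2. Tfeb exceeded Mitf in 4 tumours and Tfe3 exceeded Mitf in 2, 1 of them ΔEcad male 7, where Tfe3 was at its highest (34.1 TPM). Tfec, a family member best known from macrophages, never passed 4.69% of the sum.

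**Figure D2:**
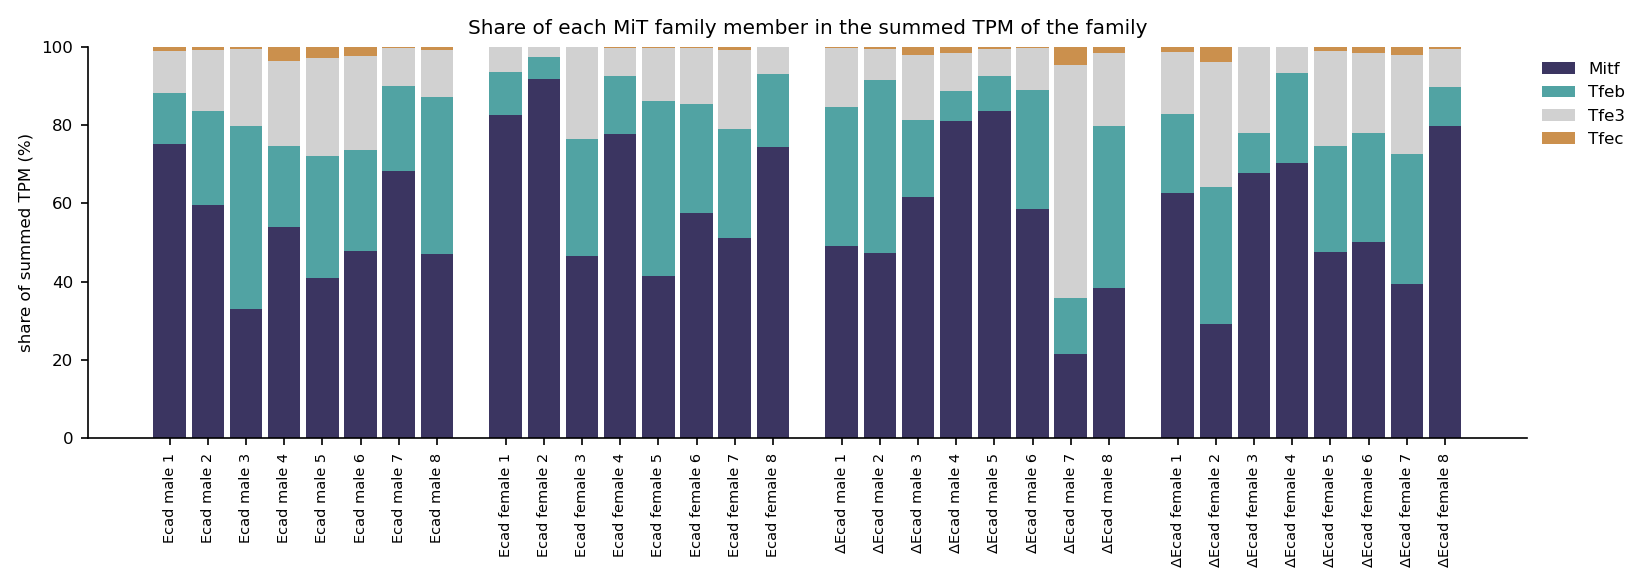
Share of Mitf, Tfeb, Tfe3 and Tfec in their summed TPM, in percent, 1 bar per tumour in 4 blocks by group. Mitf ranges from 21.6% in ΔEcad male 7 to 91.7% in Ecad female 2. Tfe3 takes the largest part in ΔEcad male 7 (59.4%), and Tfeb in 4 tumours, from 35.1% in ΔEcad female 2 to 46.7% in Ecad male 3.

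Genotype was compared within each sex by edgeR in 1 model of all tumours, with a gene called when its adjusted p was below 0.05 and its log2 fold change lay beyond 1 in either direction. In females, 4 factors had an unadjusted p under 0.05: Mitf, Sox5 and Sox6 had lower and Sox9 higher values in ΔEcad tumours. None was called, among 1.2% of all genes that were. The 4 of 10 at an unadjusted p under 0.05 compare with 15.3% of all genes. For Mitf the log2 fold change was -1.26 (95% interval -2.30 to -0.22, edgeR adjusted p = 0.196), on the levels given above, which overlapped. Sox9 had a log2 fold change of 1.87 (0.41 to 3.33, adjusted p = 0.167), Sox6 of -1.31 (-2.55 to -0.07, adjusted p = 0.286) and Sox5 of -0.80 (-1.56 to -0.04, adjusted p = 0.286). Sox10 was at -0.35 (-1.52 to 0.82, adjusted p = 0.854), an interval too wide to exclude a 2-fold difference. The other 5 factors had log2 fold changes from -0.72 to 0.60.

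Skin content also differed between the female genotypes, and whether it accounts for these values was not tested. Over the 32 tumours the keratinocyte score (mean log2 CPM of its markers) had rho = -0.50 with Mitf, -0.51 with Sox5, 0.51 with Sox9 and -0.11 with Sox6. All 7 keratinocyte markers had positive log2 fold changes in ΔEcad females (median 5.36), and 4 of 6 hair follicle markers tested were called higher: Krt25 (9.83), Krt27 (11.14), Krt35 (9.30) and Hoxc13 (7.78), with edgeR adjusted p from 0.0394 to 0.0429. Markers of other cells were also above 0: 6 of 6 for fibroblasts (median 1.46), 5 of 6 for Schwann cells (1.98) and 6 of 6 for skeletal muscle (2.68), with 0 called. With the keratinocyte and melanocytic scores as covariates, the log2 fold change of Mitf in females was -0.66 (adjusted p = 0.808), that of Sox9 was 0.93 (adjusted p = 0.802), that of Sox5 was -0.53 (adjusted p = 0.762) and that of Sox6 was -1.21 (adjusted p = 0.691). Both scores were fitted together, and all 6 melanocytic markers were themselves below 0 in ΔEcad females (median -0.92), so skin and pigment cell content cannot be told apart in this fit. These markers are also on the list of pigment cell targets of MITF, so the melanocytic covariate is not independent of Mitf. DESeq2 called 1 factor in females, Sox9 (1.94, adjusted p = 0.0498), where 0.0498 and 0.802 were the lowest and highest adjusted p of Sox9 among the alternatives, and neither limma fit called a factor in any of the comparisons. The share of all genes called by DESeq2 is not given here, and the share above is that of edgeR. Pax3, at -0.72 with an adjusted p = 0.624, also came under an unadjusted p of 0.05 when ΔEcad male 7 was left out of the model, with an adjusted p = 0.256.

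In males, only Tfap2a had an unadjusted p under 0.05, in a comparison where 10.2% of all genes did and 0% were called. The log2 fold change of Tfap2a was -0.92 (95% interval -1.63 to -0.20, edgeR adjusted p = 0.427). Of the 8 ΔEcad males, 5 lay below the lowest Ecad male, at 43.8 TPM. The value was -0.81 without ΔEcad male 7 and -0.83 with the marker scores as covariates (adjusted p = 0.424 and 0.451). Without the library labelled ΔEcad male 2, which had the lowest Tfap2a level (8.23 TPM), it was -0.78, and without both libraries -0.64 (adjusted p = 0.648 and 0.664). Without both, Sox5 and not Tfap2a had an unadjusted p under 0.05. Mitf (0.32, adjusted p = 0.837), Sox10 (-0.36, adjusted p = 0.839) and the other 7 factors, at -0.21 to 0.59, did not pass. Sox9 was at -0.21, and at -0.99 (adjusted p = 0.584) without ΔEcad male 7. Averaged over both sexes, no factor had an unadjusted p under 0.05, against 9.88% of all genes, and none was called (0.0113% of genes). Mitf was then at -0.47 (adjusted p = 0.692) and Sox10 at -0.35 (adjusted p = 0.821). DESeq2 called no factor in either of these comparisons.

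Sex was compared within each genotype. In Ecad tumours, Mitf and Sox5 had higher and Tfap2a lower values in females than in males at an unadjusted p under 0.05, 3 of 10 factors against 16% of all genes. None was called, where 0.0508% of genes were. ΔEcad male 7 is in neither group but enters the shared estimate of the spread, and without it Pax3, Sox6 and Sox9 joined these, 6 of 10 against 16.6% of genes, again with none called. The log2 fold change of female against male was 1.25 for Mitf (95% interval 0.21 to 2.29, edgeR adjusted p = 0.213), 1.01 for Sox5 (0.25 to 1.77, adjusted p = 0.169) and -0.83 for Tfap2a (-1.54 to -0.11, adjusted p = 0.235). Sox10 was at 0.18 (adjusted p = 0.912). The other 6 factors were at -1.34 to 1.18. For Mitf the value was 0.78 (adjusted p = 0.988) with the marker scores as covariates, and 7 Ecad males but 2 Ecad females were among the tumours with a keratinocyte score of 0 or more. In ΔEcad tumours no factor had an unadjusted p under 0.05, against 8.81% of genes, and 0.0395% of genes were called. Without ΔEcad male 7, Sox9 did, against 9.77% of genes. Mitf was at -0.33 (adjusted p = 0.888) and Sox10 at 0.19 (adjusted p = 0.951) there, and Sox10 was at -0.01 without ΔEcad male 7. Sox9 was at 0.74 (adjusted p = 0.790) and at 1.51 (adjusted p = 0.483) without ΔEcad male 7. Tfap2a was at 0.70 (adjusted p = 0.575).

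The difference between the sexes in the genotype effect was tested as an interaction, coded as the female minus the male log2 fold change. Tfap2a, Sox5, Mitf and Sox9 had an unadjusted p under 0.05, 4 of 10 factors against 17.7% of genes, and none was called among 0% of genes. Tfap2a had the smallest p: its interaction was 1.52 (95% interval 0.51 to 2.53, edgeR adjusted p = 0.0918), with a genotype difference of 0.60 in females and -0.92 in males. It was 1.55 (adjusted p = 0.504) with the marker scores as covariates and was called by DESeq2 (1.59, adjusted p = 0.0353), the highest and lowest adjusted p among its alternatives. The 0% of genes called is the share by edgeR, and that by DESeq2 is not given here. Without the library labelled ΔEcad male 2 it was 1.38 (adjusted p = 0.128), and without both that library and ΔEcad male 7 it was 1.25 (adjusted p = 0.147). The interaction was -1.39 for Sox5 (adjusted p = 0.149), -1.58 for Mitf (adjusted p = 0.236) and 2.08 for Sox9 (adjusted p = 0.267, and 2.85 with adjusted p = 0.0876 without ΔEcad male 7). The other 5 factors apart from Sox10 were at -1.20 to -0.08. Sox10 was at 0.01 (-1.65 to 1.66), a value whose sign changed in 18 of the alternatives. These comparisons share groups, so their values are not independent of each other.

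**Figure D3:**
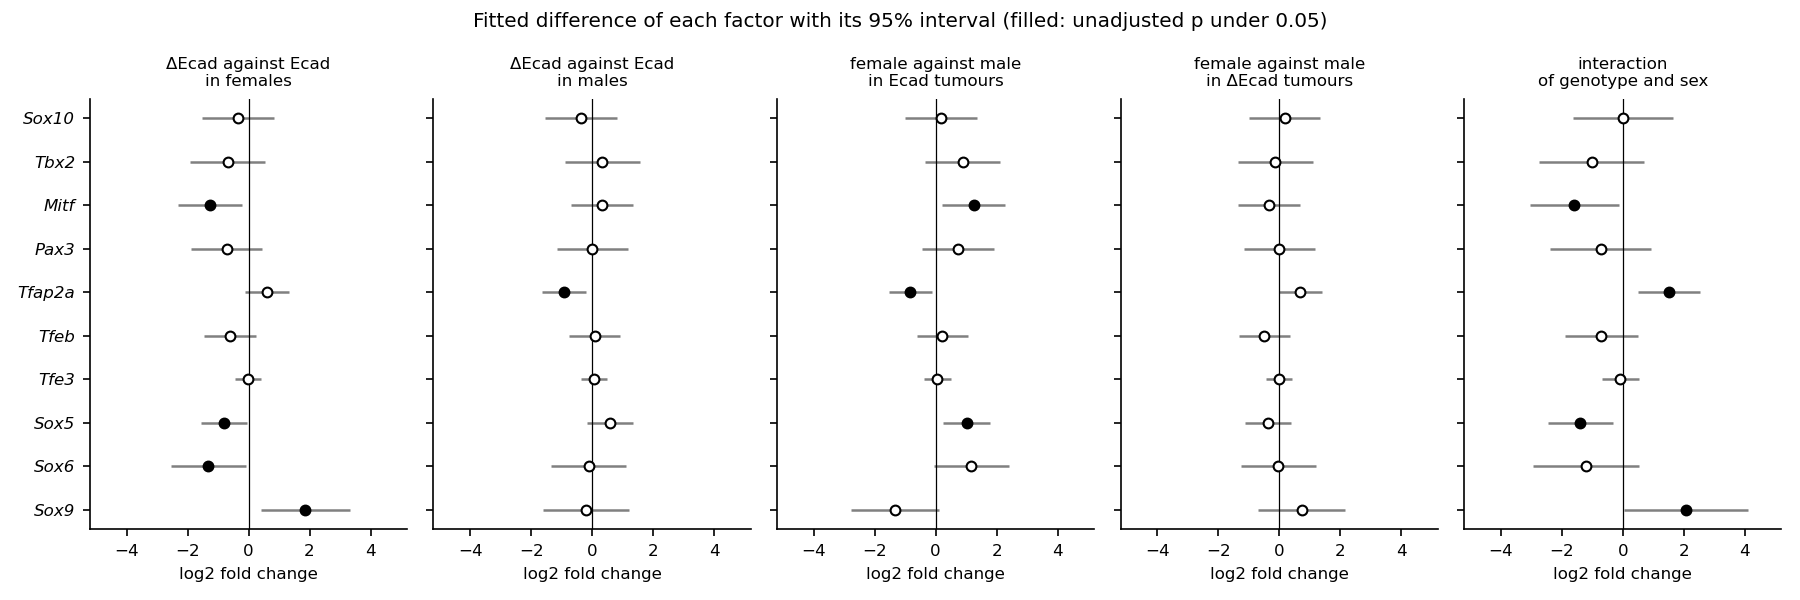
Log2 fold change of each factor (x axis) with its 95% interval in the 4 comparisons between groups and the interaction, from the edgeR model, with filled points at an unadjusted p under 0.05. Tfe3 has the narrowest intervals, those of Sox9 and Sox10 are wide, and Tfap2a lies furthest from 0 relative to its interval in the interaction, at 1.52.

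The ratios between factors were compared as differences of log2 CPM (counts scaled to library size), by a two-sided exact permutation over 12870 splits with adjustment over 12 tests, and 0 of 12 passed. The log2 ratio of Mitf to Sox10 was -2.69 ± 0.69 for Ecad males, -1.74 ± 1.61 for Ecad females, -0.99 ± 2.80 for ΔEcad males and -2.40 ± 0.90 for ΔEcad females (SD, n = 8 each). Its difference between male genotypes, 1.70 (exact p = 0.0294, adjusted p = 0.259), was 0.73 (exact p = 0.0563) without ΔEcad male 7, where the ratio was 5.77. That of Sox9 to Sox10 was -6.44 ± 1.62, -8.15 ± 1.85, -5.38 ± 4.97 and -6.05 ± 3.02 in the same order (SD, n = 8 each). Without ΔEcad male 7 the ΔEcad males were at -7.12 ± 0.86 (SD, n = 7), which turned the difference between male genotypes from 1.06 to -0.67 (exact p = 0.829 and 0.342) and that of female against male ΔEcad tumours from -0.67 to 1.06 (exact p = 0.819 and 0.386). The ratio of Mitf to Tfe3 lay between 1.03 and 2.13 in group means, with an exact adjusted p of at least 0.259 in all 4 comparisons.

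How the factors varied together was examined over the 32 tumours. Of 45 pairs, 15 passed, by permutation, both for Pearson's r and for Spearman's rho of log2 CPM after adjustment over the 45, with 9 positive and 6 negative. All 6 negative pairs involved Sox9. Without ΔEcad male 7, 15 pairs passed, 11 of them among the first 15, and 6 passed in all 5 settings tried (log2 CPM, log2(TPM + 1), values centred on group means, and without ΔEcad male 7 or the library labelled ΔEcad male 2). These 6 are given here. What share of all gene pairs would pass the same test was not computed, so these counts have no background beside them.

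Mitf and Pax3 had the highest rho of the 6 (r = 0.64, permutation adjusted p = 0.000225, and rho = 0.68, adjusted p = 0.00135). The smallest p that the permutations can give, 1e-05, was reached by the unadjusted r. When the 2 tumours with the most extreme Mitf were left out, r was 0.70, without ΔEcad male 7 the rho was 0.64, and r was positive within all 4 groups (0.17 to 0.91). Sox10 and Tfeb followed (r = 0.60, permutation adjusted p = 0.000225, and rho = 0.64, adjusted p = 0.0036), with r = 0.62 without the 2 farthest tumours and 0.47 to 0.82 within groups. Sox10 and Tbx2 had r = 0.76 and rho = 0.49 (permutation adjusted p = 0.0006 and 0.0179), and r = 0.52 without the 2 farthest tumours. Pax3 and Sox6 had r = 0.79 and rho = 0.57 (permutation adjusted p = 0.00191 and 0.00727), and r = 0.44 without the 2 farthest. Sox5 and Tbx2 had r = 0.57 and rho = 0.55 (permutation adjusted p = 0.00243 and 0.00771), and r = 0.53 without the 2 farthest. Sox9 and Tfeb ran in opposite directions (r = -0.51 and rho = -0.49, permutation adjusted p = 0.00951 and 0.0179), with r = -0.55 without the 2 farthest. Within groups, r ran from 0.02 to 0.90 for Sox10 and Tbx2. The other 3 pairs kept their sign in 3 of the 4 groups. Their r within groups was -0.05 to 0.93 for Pax3 and Sox6, -0.02 to 0.66 for Sox5 and Tbx2, and -0.80 to 0.39 for Sox9 and Tfeb.

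Sox9 and Sox10, relatives within the SOXE group, also ran in opposite directions (r = -0.47, permutation adjusted p = 0.015, and rho = -0.53, adjusted p = 0.0108), with r = -0.60 without the 2 tumours of most extreme Sox10, r = -0.64 without ΔEcad male 7 and negative r in all 4 groups. The pair did not pass on log2 TPM (r = -0.48, rho = -0.39). Mitf and Sox10 passed for r (0.52, permutation adjusted p = 0.00938) but not for rho (0.35, adjusted p = 0.094), passed both on log2(TPM + 1) (r = 0.50, rho = 0.46) and had r = 0.27 without ΔEcad male 7. Sox10 and Pax3 had the highest r of all pairs, 0.93, but rho = 0.35, and r = 0.42 without ΔEcad male 7. Tfap2a was at a negative rho with Sox6 (-0.49) and Tbx2 (-0.47), and both pairs passed only in the setting without ΔEcad male 7 (-0.61 and -0.60).

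**Figure D4:**
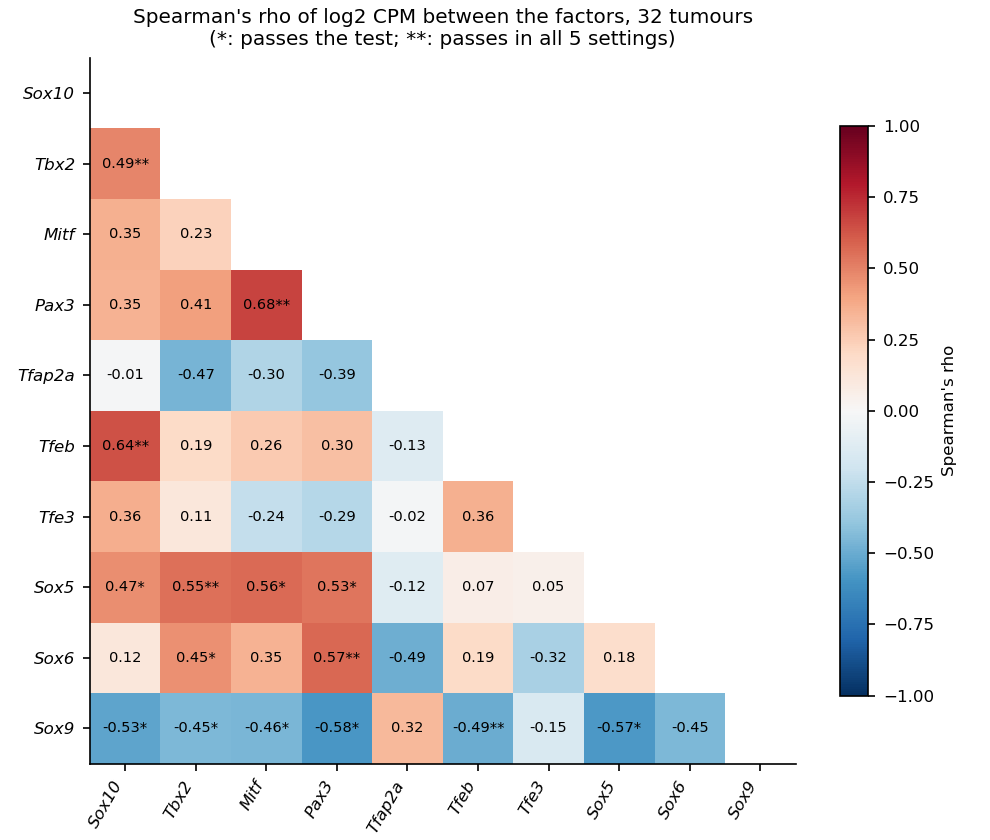
Spearman's rho of log2 CPM over 32 tumours for each pair of factors, with 1 asterisk for the 15 pairs that pass the test and 2 for the 6 that pass in all 5 settings. The row of Sox9 is negative except with Tfap2a (0.32), and the strongest positive cells are Mitf with Pax3 (0.68) and Sox10 with Tfeb (0.64).

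**Figure D5:**
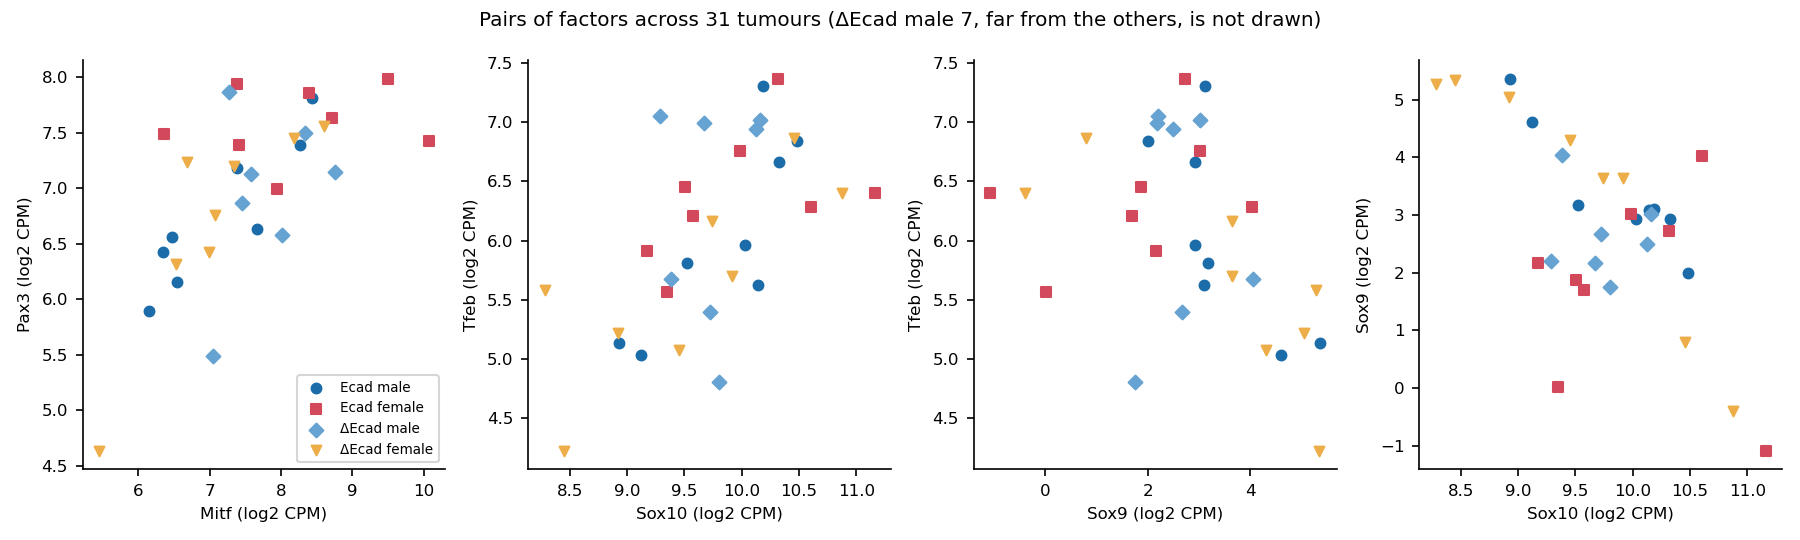
Log2 CPM of 4 pairs of factors in the 31 tumours other than ΔEcad male 7, which lies far from them, with a colour and symbol for each group. Pax3 rises with Mitf (r = 0.67) and Tfeb with Sox10 (r = 0.61), Tfeb is lower where Sox9 is higher (r = -0.45), and Sox9 is lower where Sox10 is higher (r = -0.64), with the 4 groups intermixed.

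The factors were set against marker scores (mean log2 CPM over a list) for cells in the tumours. All 6 melanocytic markers (Tyr, Tyrp1, Dct, Pmel, Mlana and Slc45a2) are also among the 14 pigment cell targets of MITF. Relations with this score and with those targets are therefore not independent. The melanocytic score passed with Sox10 (r = 0.92, rho = 0.56, permutation adjusted p = 0.0008 and 0.0058) and Tfeb (r = 0.65, rho = 0.67, permutation adjusted p = 0.0002 and 0.0018). Without the 2 farthest tumours r was 0.59 for both. The relation of Sox10 did not pass on log2 TPM. Mitf did not pass (rho = 0.29). The fibroblast score had negative relations with Mitf, Sox10, Pax3, Sox5 and Tbx2 (rho from -0.63 to -0.46) and a positive one with Sox9 (r = 0.56, rho = 0.61, permutation adjusted p = 0.00463 and 0.0028, and r = 0.62 without the 2 farthest tumours). On log2 TPM, which is scaled differently, only that of Sox9 passed, and without ΔEcad male 7 that of Tbx2 did not. The macrophage score passed with 0 of 10 factors.

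Over the 32 tumours the keratinocyte score passed with Mitf (r = -0.42, rho = -0.50, permutation adjusted p = 0.0398 and 0.0169) and Sox5 (r = -0.47, rho = -0.51, adjusted p = 0.024 and 0.0166). Without ΔEcad male 7 both passed again (rho = -0.58 and -0.59), as did Sox9 (rho = 0.60). On log2 TPM only Sox9 passed, and after centring on group means no factor did. The tumours were also split at a keratinocyte score of 0, into 13 from -4.42 to -0.49 and 19 from 1.49 to 9.98. Relations were computed within each part. This cut was set by hand and was not among the planned tests. The lowest of the 19, ΔEcad male 6 at 1.49, had 65.1 TPM of keratinocyte markers, and the next, Ecad male 8, was at 3.91. In the 19 tumours with more skin, Sox9 rose with the score (r = 0.70, rho = 0.78, permutation adjusted p = 0.0058 and 0.001 over the 10 factors). Among the same tumours Tfeb had r = -0.68 and rho = -0.50 (permutation adjusted p = 0.0058 and 0.0907) and Sox10 r = -0.57 and rho = -0.55 (adjusted p = 0.0342 and 0.085), neither of which passed both tests. In the 13 with little skin no factor passed, and Sox9 was at rho = 0.14. Mitf and Pax3 kept a positive rho in both parts (0.82 and 0.52), as did Sox10 and Tfeb (0.57 and 0.64), whereas Sox9 and Tfeb had rho = -0.29 in the tumours with little skin (-0.09 without ΔEcad male 7) and -0.58 in those with more.

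Mitf, Sox10, Tfe3 and Tfeb were then compared with the genes they are known to control, a set of 56 relations chosen with the data in view. Of 14 pigment cell targets, 2 passed with Mitf (Tyr and Rab27a) and 4 with Sox10 (Dct, Slc45a2, Oca2 and Mc1r), all positive, but without ΔEcad male 7 only 1 did with each, Rab27a and Slc45a2. Rab27a, which moves pigment granules, followed Mitf (r = 0.73, rho = 0.62, permutation adjusted p = 0.000112 and 0.00177), and Slc45a2, a transporter of the pigment granule, followed Sox10 (r = 0.95, rho = 0.65, permutation adjusted p = 0.000112 and 0.00157). Without the 2 farthest tumours these were r = 0.59 and 0.61. The median rho over the 14 targets was 0.34 for Mitf and 0.39 for Sox10. Of 14 lysosomal and nutrient-sensing genes, 6 passed with Tfeb and 0 with Tfe3. No share over all genes was computed beside these counts or those of the pigment cell targets. Sox10, at rho = 0.64 with Tfeb, was only in place 496 among the tested genes most like Tfeb. Sqstm1, an autophagy receptor, followed Tfeb (r = 0.80, rho = 0.80, permutation adjusted p = 0.000112 and 0.000373), as did Neu1, a lysosomal sialidase (r = 0.78, rho = 0.73, permutation adjusted p = 0.000112 and 0.000373), with r = 0.77 and 0.68 without the 2 farthest tumours. The other 4, the proton pump subunits Atp6v1h and Atp6v0d1, the hexosaminidase gene Hexa and the protease gene Ctsd, passed on log2 CPM but not on log2 TPM, and Ctsd also not without ΔEcad male 7. Fnip1, on the same list, ran against Tfeb (r = -0.38, rho = -0.45, permutation adjusted p = 0.0642 and 0.0462). It passed without ΔEcad male 7 (rho = -0.57, permutation adjusted p = 0.00864) but not on log2 TPM. The median rho over the 14 genes was 0.30 for Tfeb and -0.03 for Tfe3.

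The same gene lists were examined between genotypes, and 0 genes of the 5 lists of targets, regulators and paralogues were called by edgeR in either sex, beside 1.2% of all genes in females and 0% in males. The counts at an unadjusted p under 0.05 stand beside 15.3% of all genes in females and 10.2% in males, so that the 1 of 14 pigment cell targets lay below that share in females and the 4 of 14 lysosomal genes, 3 of 11 regulators and 3 of 7 paralogues above it, on small lists. All 14 pigment cell targets had a log2 fold change below 0 in ΔEcad females (median -0.86, against -0.02 over all genes), and 1 had an unadjusted p under 0.05, Rab27a (-0.98, adjusted p = 0.308), beside Gpr143, a receptor of the pigment granule, at -1.36 (adjusted p = 0.434). The 6 melanocytic markers are among these targets. In males 7 of 14 were above 0 (median 0.00, against 0.11 over all genes), and the smallest p were those of Tyrp1 (-1.10, adjusted p = 0.698) and Gpr143 (-0.74, adjusted p = 0.741). All 7 other MITF targets tested were below 0 in females (median -0.67), with the survival gene Bcl2 at -0.85 and Ppargc1a at -1.72 (adjusted p = 0.339 and 0.351). In males, Cdk2, the cell cycle kinase gene, which overlaps Pmel, was at -1.31 (adjusted p = 0.375) and Hif1a, the hypoxia factor gene, at 1.13 (adjusted p = 0.446). All 14 lysosomal genes were below 0 in females (median -0.51), 4 of them at an unadjusted p under 0.05. Of these Ctsb, a lysosomal protease, was at -1.33 (adjusted p = 0.0591) and Rragd at -1.39 (adjusted p = 0.184). In males 1 was at an unadjusted p under 0.05, Ctsd (1.03, adjusted p = 0.453), and Flcn was at -0.47 (adjusted p = 0.505).

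Of 11 regulators of Mitf and neural crest factors, 2 were higher and 1 lower in ΔEcad females at an unadjusted p under 0.05. Gli2, a Hedgehog effector that represses MITF in melanoma cells, was at 2.22 (adjusted p = 0.0886) and Snai2 at 1.62 (adjusted p = 0.0961). In males none was, with Ctnnb1 at 0.56 and Foxd3 at -1.01 (adjusted p = 0.554 and 0.622). Of the 7 tested paralogues of the factors, all were above 0 in females (median 0.97) and 3 were at an unadjusted p under 0.05. Tfap2e was at 6.42 (adjusted p = 0.0517) and Tfap2c, a factor of skin keratinocytes, at 4.50 (adjusted p = 0.16), which turned to -1.39 with the marker scores as covariates. In males Tbx3 was at 1.67 (adjusted p = 0.535) and Tfap2e at -1.75 (adjusted p = 0.65). The value of Tbx3 was -0.35 without ΔEcad male 7. DESeq2 called Gli2, Snai2, Ctsb and Tfap2e in females, where the shares of all genes called given above are those of edgeR and not of DESeq2.

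The genes whose levels were most like those of each of 4 factors over the 32 tumours are given as a description, by Spearman's rho of log2 CPM. For Mitf they were Kif3a (0.77), Oxnad1 (0.77), Dnmt3a (0.76), Lig4 (0.76) and Zbed4 (0.75). For Sox10 they were Sppl2b (0.92), Irf2bp1 (0.84), Sall2 (0.82), Gng7 (0.81) and Pcbp4 (0.79). For Pax3 they were Nlk (0.81), Ap5m1 (0.78), Cerk (0.74), Lyrm9 (0.74) and Fubp1 (0.74). For Sox9 they were Hdgfl3 (0.83), Nfix (0.81), Sfrp1 (0.81), Egfr (0.80) and Adgrb2 (0.80). The first gene for Mitf, Sox10 and Sox9 was also first without ΔEcad male 7. Other factors came lower among the genes tested. The best-placed was Pax3 for Mitf (place 28), Tfeb for Sox10 (224), Mitf for Pax3 (19) and Tfap2a for Sox9 (2897). Without ΔEcad male 7 these were in places 73, 350, 46 and 1805. For Sox10, Mitf was in place 2513 and Pax3 in place 2545.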

How the data were processed

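RNA-seq of 32 tumours was aligned and counted by the authors (FastQC 0.11.5, STAR and mm10 or GRCm38.p5 in the submitters' processing notes), who deposited raw counts and TPM per Ensembl gene. The counting settings are not given in the sources used here. Symbols came from GENCODE M21, found for 50376 of 50600 identifiers. The factors and gene lists were chosen with earlier results of these data known. Counts were fitted by edgeR 4.0.16 in R 4.3.3 (TMM, filterByExpr, robust quasi-likelihood, 1 model of 4 groups), with Benjamini-Hochberg adjustment over 17717 genes. On simulated data with the same libraries, 69% of genes changed by 2 on the log2 scale were called. Alternatives were DESeq2 1.42.0, limma 3.58.1, other scalings and filters, marker scores as covariates, a replicate block and leaving out tumours. Correlations used 100000 permutations (scipy 1.17.1). Named were all factors by level, Mitf, Sox10 and any factor at p under 0.05 by fold, the called list genes or else the 2 of smallest p per sex, Cdh1, and the 5 genes most like Mitf, Sox10, Pax3 and Sox9. Replicate numbers did not pair the tumours.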

Additional observations from a re-analysis of the deposited data

Results flagged for a closer look

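Among the 40 sets of 8 tumours (10 factors in 4 groups), 8 held a tumour far from the other 7 by Dixon's ratio. Of these, 5 were low values of ΔEcad male 7, at log2 CPM of 4.55 for Mitf, -1.22 for Sox10, -4.29 for Pax3, -1.22 for Sox6 and 3.35 for Tbx2. Pax3 was also far below its group in ΔEcad female 2, at 4.64. Sox6 was far above its group in ΔEcad female 8, at 6.83, and Tbx2 in Ecad male 1, at 9.85. The nominal rate of this rule is about 5% for a single set. The 40 sets hold the same tumours and are not independent, so their count cannot be set against that rate. The share over all genes was not computed.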

How the results depend on the processing

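Over 41 gene results, 1656 alternatives kept direction and side of the threshold, 26 newly passed it and 31 changed sign. Not all of the 26 are named here. DESeq2 called 1 factor in females (Sox9) and 1 in the interaction (Tfap2a), where edgeR called 0. The share of all genes that DESeq2 called is not given here. On log2(TPM + 1), 3 relations with marker scores passed, against 10. With marker scores as covariates, Sox10 turned to 0.34 in females and 0.044 averaged over sexes, Tfap2c to -1.39 and Tbx3 in males to -0.15. Tbx3 in males was also at -0.38 with DESeq2, -0.70 with limma voom and -0.19 without ΔEcad males 2 and 7, and Mitf in males was at -0.030 with limma on TPM. Without ΔEcad males 2 and 7, Sox10 was at -0.074 for sex in ΔEcad tumours and -0.25 in the interaction. Leaving out 1 tumour at a time, Sox10 ran from -0.061 to 0.28 for sex in Ecad tumours, from -0.078 to 0.32 in ΔEcad tumours and from -0.26 to 0.25 in the interaction, and Tbx3 in males from -0.35 to 2.01. These were all small or wide values that passed no test, and the cause was not tested. With a replicate block, 0 factors were called in any comparison, and the replicate numbers did not pair the tumours (median correlation of same-numbered tumours 0.042). In females 1 gene of all tested was called under the block, against 213. The fewest counts in a tumour were 1 for Pax3, 16 for Sox9 and 17 for Sox10 and Sox6, and the effect of depth was not tested.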

Other observations

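In values chosen after they were seen, high Mitf did not always go with high levels of all its pigment targets. ΔEcad female 8 had 179 TPM of Mitf and 107 TPM of Pax3, both the highest of its group, yet 8 of the 14 pigment cell targets were under 10% of their median over the tumours. Tyrp1 was at 12.4 TPM, Mc1r at 4.4 TPM, Pmel at 40.9 TPM, Mlana at 564 TPM, Slc24a5 at 6.7 TPM, Gpr143 at 3.0 TPM, and Oca2 and Trpm1 at 0.4 TPM each. In the same tumour Dct was at 15836 TPM, Slc45a2 at 802 TPM and Tyr at 520 TPM. In ΔEcad male 7, where Mitf was at 12.4 TPM, 13 of the 14 were under 10% of the median.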
